A study of Capra hircus with 9 samples.

Results

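Transcript levels of 9 genes of the BCL2 family (BCL2, BCL2L1, MCL1, BCL2A1, BAX, BAK1, BCL2L11, BID and PMAIP1) were followed in submandibular glands of goats at 3 ages. The members were chosen by name, and the expected counts of all transcripts that carry a member's symbol were summed. All 9 were found among the 21229 genes of the table, and all 9 passed the filter on low counts in each comparison. Levels are given as CPM, the expected count scaled to a common library size with TMM factors (edgeR's trimmed mean of M-values). CPM does not correct for transcript length, so each gene was compared with itself across libraries and not with other genes.

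BCL2 family proteins act at the outer membrane of the mitochondrion and decide whether it is opened to release cytochrome c, the step that starts the caspase cascade of the intrinsic death pathway. Survival proteins hold the pore-forming effectors BAX and BAK1 in check, and BH3-only proteins bind the survival proteins or activate the effectors directly. The balance between them is best known in lymphocytes, where it sets the survival of developing thymocytes and of blood cells, and most epithelia also express several of these genes. The list is named for survival, but it holds proteins that keep cells alive and proteins that kill them.

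Healthy female Lubo goats were sampled in 3 groups, 1 month old (group A), 12 months old and unbred (group B) and 24 months old (group C), with 3 goats and 3 libraries in each group. No genetic change or treatment separates the groups. All animals were housed alike, fasted, anaesthetized with xylazine and slaughtered before the gland was frozen, and RNA was sequenced after removal of ribosomal RNA. The sum of expected counts ranged between 11546808 and 17586065 for the libraries of group A, between 18231894 and 21065278 for those of group B and between 22040776 and 24901065 for those of group C, so that 3 counts correspond to 0.149 to 0.196 CPM. A level under that floor could not be told from 0, and no member fell under it in any library.

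The gland label was compared with marker genes. The 8 salivary acinar and duct markers summed to 129461 to 227545 CPM in the 6 libraries of groups B and C, and to 39683 and 26366 CPM in replicates 1 and 3 of group A. Replicate 2 of group A, however, had a sum of 203 CPM, with the water channel AQP5 at 0.508 CPM, PIGR at 4.86 CPM and ZG16B at 9.35 CPM, whereas the keratin KRT18 was at 70.8 CPM against 94.2 and 53.5 CPM in the other 1-month-old libraries. The 12 thymocyte markers summed to 12343 CPM in that library, to 3601 and 1769 CPM in the others of group A, and to 9.64 to 27.7 CPM in groups B and C. Thymic epithelium markers followed the same order, with 725, 179 and 71.2 CPM for replicates 2, 1 and 3 of group A and at most 2.61 CPM in the older groups, where AIRE was at 0 counts in every library. The library labelled 1-month-old replicate 2 therefore goes against its tissue label in its salivary markers, and the comparisons of the members and of the named genes with group A are given with and without it. The fits without it keep replicates 1 and 3, with thymocyte sums of 3601 and 1769 CPM. Leaving it out thus does not remove the thymocyte and thymic epithelium markers from group A.

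**Figure D1:**
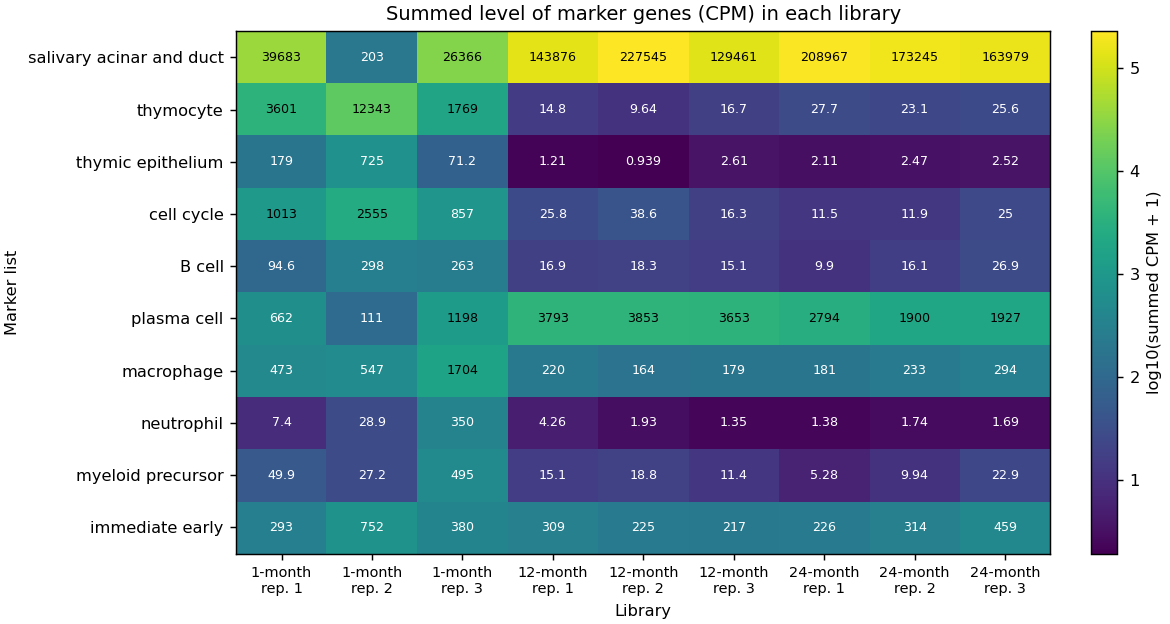
Summed CPM of 10 marker lists (rows) in each of the 9 libraries (columns), with the color giving log10(summed CPM + 1) and the number in each cell the sum. Salivary markers fall to 203 CPM in 1-month-old replicate 2, thymocyte markers are at 1769 CPM or more in all 3 libraries of group A and at 27.7 CPM or less in the others, and the neutrophil sum of 350 CPM stands out in 1-month-old replicate 3.

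Of the 9 members, 3 were lower in both older groups than in group A: the survival gene BCL2A1 and the BH3-only genes BCL2L11 and PMAIP1. None of the members was higher in an older group. With 12 months against 1 month, 3 of 9 members changed at an adjusted p under 0.05 in edgeR's quasi-likelihood test, all of them lower, where 11.7% of the 14622 genes tested were lower and 6.52% higher. With 24 months against 1 month, it was again 3 of 9, all lower, where 10.4% of 14696 genes were lower and 7.1% higher. The same members also passed the fold threshold that the study used, an absolute log2 fold change over 2, in both comparisons. The study screened transcripts with it, together with an FPKM threshold, whereas it was applied here to gene sums. That threshold and a lower level together were met by 9.36% of genes at 12 months and 9.01% at 24 months. The median log2 fold change of the 9 members was -1.30 at 12 months and -1.28 at 24 months, beside medians of -0.02 and -0.01 over all genes tested. The members' medians were closer to 0 without 1-month-old replicate 2, at -0.63 and -0.54, and those of all genes were -0.01 and 0.05. That library was singled out from these same data. Without it 43.7% of all genes were called in either direction at 12 months and 28.3% at 24 months, against 18.2% and 17.5% with it. The adjusted p values of the fits without it are therefore not an independent test of a change with age. The comparisons share the libraries of group A, so the second does not repeat the first on new animals.

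**Figure D2:**
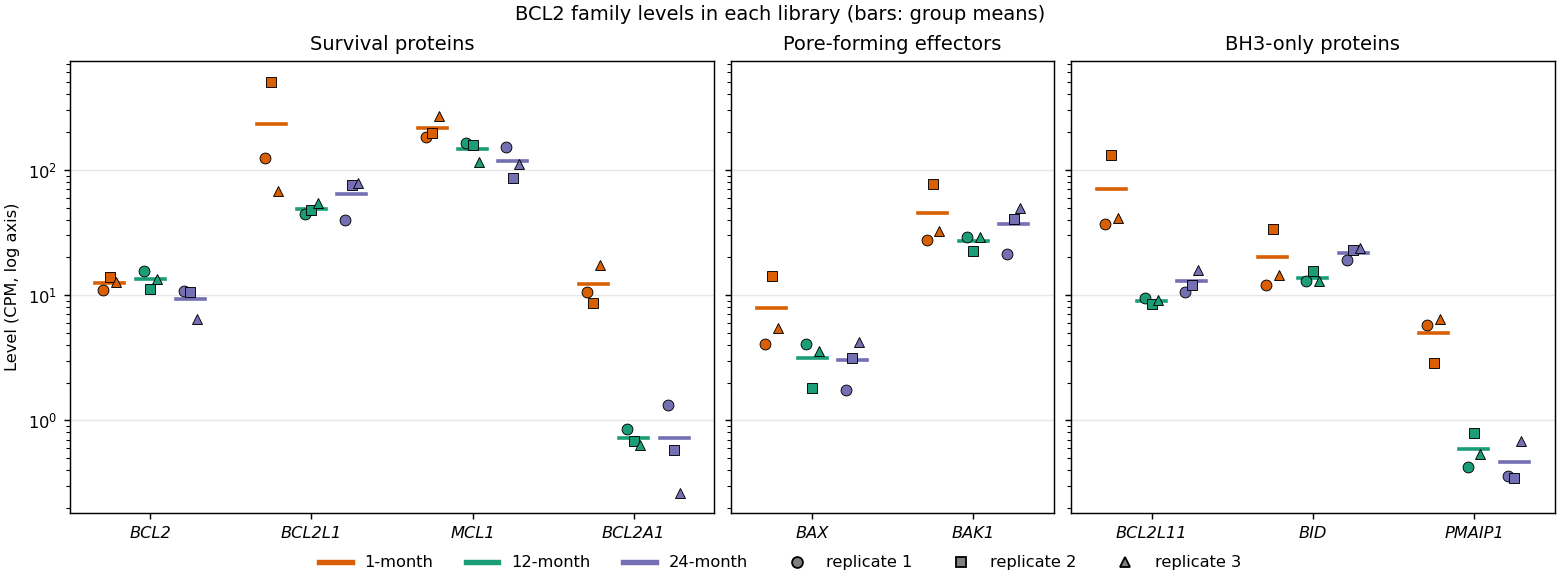
CPM (log axis) of each member in each library, with the 3 groups in color, the replicate number as the symbol and bars at the group means (n = 3). BCL2A1 and PMAIP1 lie at 2.86 CPM or more in every library of group A and at 1.32 CPM or less in every older library, while BCL2L1, BCL2L11, BAX, BAK1 and BID have their highest value in 1-month-old replicate 2.

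BCL2A1 (BFL-1), a survival protein of lymphocytes and myeloid cells that NF-κB induces, had the largest fold change of the 9 in both comparisons with group A. Its level was 10.6, 8.66 and 17.4 CPM at 1 month (replicates 1, 2 and 3, as throughout), from 161 to 266 expected counts. It was 0.852, 0.680 and 0.631 CPM at 12 months and 1.32, 0.582 and 0.265 CPM at 24 months, from 5 to 23.6 expected counts in the 6 older libraries. The lowest library of group A lay above the highest older library, and 1-month-old replicate 2 was the lowest of its group. BCL2A1 was 16.1-fold lower at 12 months (log2 fold change -4.01 ± 0.43 SE, adjusted p = 0.0062) and 15.3-fold lower at 24 months (-3.93 ± 0.68, adjusted p = 0.0097). Without 1-month-old replicate 2 the log2 fold changes were -4.27 (adjusted p = 0.00065) and -4.13 (adjusted p = 0.0027).

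MCL1, a short-lived survival protein that many cell types need, was at 184, 197 and 270 CPM at 1 month, 164, 159 and 116 CPM at 12 months and 153, 85.8 and 111 CPM at 24 months. Neither older group overlapped with group A, but the distance was small beside the spread. The log2 difference was -0.51 ± 0.29 at 12 months (adjusted p = 0.227) and -0.79 ± 0.39 at 24 months (adjusted p = 0.190). Without 1-month-old replicate 2 it was -0.63 (adjusted p = 0.0657) and -0.86 (adjusted p = 0.0946), which did not pass the test either.

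BCL2L1, which encodes BCL-XL, the survival protein of double-positive thymocytes and many epithelia, was at 124, 507 and 67.3 CPM at 1 month. It was at 44.1, 48.2 and 54.3 CPM at 12 months and at 39.8, 76.2 and 78.1 CPM at 24 months. Replicate 2 alone held 72.6% of the summed level of group A, and the 24-month values overlapped with replicate 3 of that group. The log2 difference was -2.23 ± 0.76 at 12 months (adjusted p = 0.0819) and -1.76 ± 0.76 at 24 months (adjusted p = 0.143). Without replicate 2 the difference at 12 months shrank to -0.97 ± 0.26 but passed the test (adjusted p = 0.0273), beside 22.2% of all genes lower in that fit. At 24 months it was -0.46 (adjusted p = 0.420) without that library, where 14.2% of genes were lower.

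BCL2, the founding survival member, which mature lymphocytes express strongly, was at 11.0, 13.9 and 12.8 CPM at 1 month, 15.5, 11.1 and 13.5 CPM at 12 months and 10.7, 10.6 and 6.46 CPM at 24 months. The 1-month and 12-month values overlapped, and 1-month-old replicate 2 lay close to the others of its group. The log2 difference was 0.14 ± 0.28 at 12 months (adjusted p = 0.723) and -0.33 ± 0.40 at 24 months (adjusted p = 0.603), and without that library it was 0.17 and -0.25. The sign at 12 months depended on the scaling, since with library totals alone BCL2 was at -0.29 and the median of all genes at -0.48.

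Of the pore-forming effectors, BAX was at 4.03, 14.2 and 5.50 CPM at 1 month, 4.05, 1.83 and 3.56 CPM at 12 months and 1.74, 3.15 and 4.23 CPM at 24 months. Replicate 2 stood apart from the other libraries of group A, and the groups overlapped. The log2 difference was -1.30 ± 0.62 (adjusted p = 0.166) at 12 months and -1.28 ± 0.65 (adjusted p = 0.200) at 24 months, and without replicate 2 it was -0.59 and -0.54. BAK1, the effector that sits in the mitochondrial membrane of healthy cells, was at 27.3, 76.9 and 32.2 CPM at 1 month, 29.2, 22.5 and 29.1 CPM at 12 months and 21.3, 40.6 and 49.2 CPM at 24 months. Its groups overlapped in all 3 comparisons. The log2 difference from group A was -0.72 ± 0.46 (adjusted p = 0.276) at 12 months and -0.19 ± 0.53 (adjusted p = 0.825) at 24 months, and without replicate 2 it was -0.14 (adjusted p = 0.547) and, with the sign changed, 0.42 (adjusted p = 0.454).

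BCL2L11 encodes BIM, the BH3-only protein that kills self-reactive thymocytes and lymphocytes deprived of cytokines. Its level was 36.9, 131 and 41.5 CPM at 1 month, 9.50, 8.45 and 9.15 CPM at 12 months and 10.6, 12.0 and 16.0 CPM at 24 months. Every library of group A lay above every older library, and replicate 2 lay far above the other libraries of group A. BCL2L11 was 7.56-fold lower at 12 months (log2 fold change -2.92 ± 0.57, adjusted p = 0.0195) and 5.10-fold lower at 24 months (-2.35 ± 0.58, adjusted p = 0.0293). Without replicate 2 the changes were smaller and less variable, -2.11 ± 0.14 (adjusted p = 0.00041) and -1.50 ± 0.33 (adjusted p = 0.0107), and the change at 24 months no longer reached the fold threshold of the study.

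PMAIP1 encodes NOXA, a BH3-only protein that binds MCL1 and BCL2A1. It was at 5.74, 2.86 and 6.42 CPM at 1 month, 0.426, 0.794 and 0.541 CPM at 12 months and 0.360, 0.349 and 0.688 CPM at 24 months. The groups did not overlap, and as for BCL2A1 the lowest library of group A was replicate 2. PMAIP1 was 8.06-fold lower at 12 months (log2 fold change -3.01 ± 0.53, adjusted p = 0.0144) and 9.84-fold lower at 24 months (-3.30 ± 0.65, adjusted p = 0.0146). These rest on 53.3 to 98.2 expected counts per library in group A and 6.42 to 14.1 in the older groups. Without replicate 2 the log2 fold changes were -3.36 (adjusted p = 0.0024) and -3.60 (adjusted p = 0.0041).

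BID, which caspase-8 cleaves to link death receptors to the mitochondrion, was at 12.1, 33.7 and 14.4 CPM at 1 month, 12.9, 15.6 and 12.9 CPM at 12 months and 19.0, 22.9 and 23.7 CPM at 24 months. Replicate 2 was again the highest of group A, and the older groups lay within the range of group A. The log2 difference was -0.51 ± 0.46 (adjusted p = 0.436) at 12 months and 0.22 ± 0.49 (adjusted p = 0.784) at 24 months. Without replicate 2 it was 0.06 (adjusted p = 0.820) and 0.83 ± 0.34 (adjusted p = 0.0968).

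**Figure D3:**
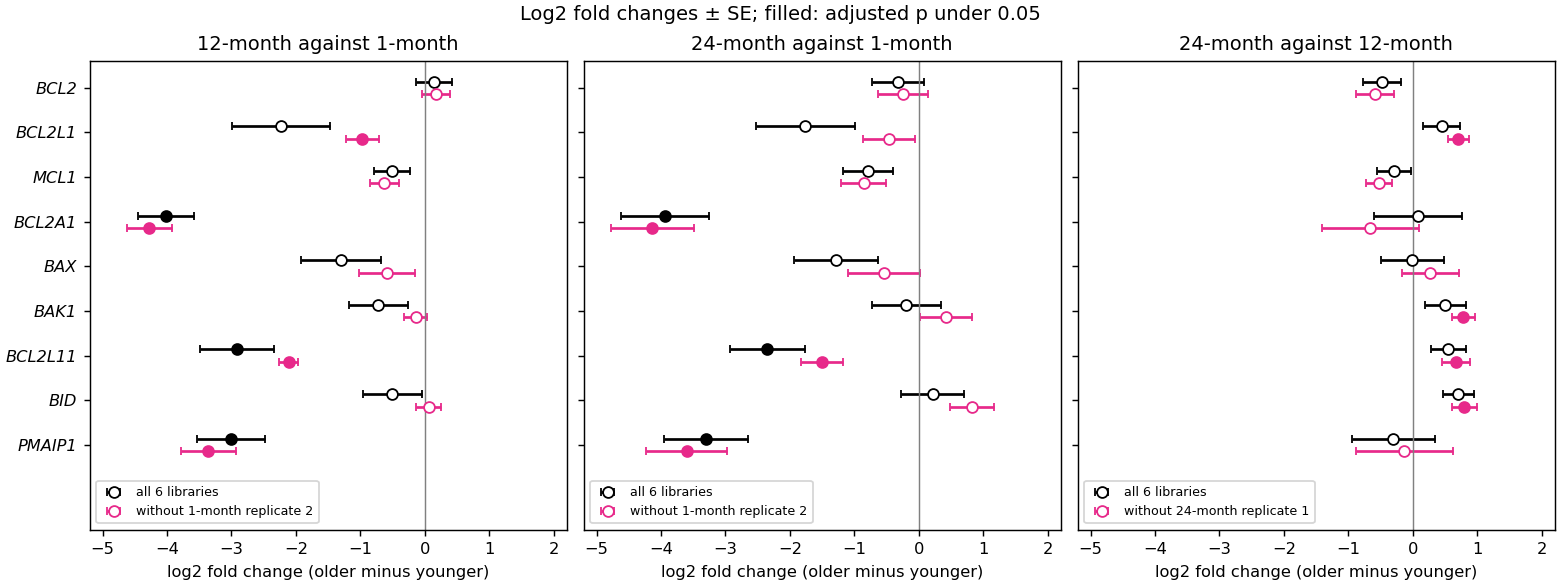
Log2 fold change ± SE of each member in the 3 comparisons (older minus younger), in black with all 6 libraries and in pink without the library named in each panel, with filled points for an adjusted p under 0.05. BCL2A1, BCL2L11 and PMAIP1 are filled in both comparisons with group A with and without 1-month-old replicate 2, BCL2L1 is filled at 12 months only without it, and 4 members are filled in the comparison of the older groups only without 24-month-old replicate 1.

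In counts of groups that did not overlap, 5 of 9 members lay lower at 12 months than at 1 month (BCL2L1, BCL2L11, MCL1, BCL2A1 and PMAIP1), beside 26.8% of all genes. At 24 months it was also 5 of 9 (BCL2, BCL2L11, MCL1, BCL2A1 and PMAIP1), beside 23.3% of all genes, and no member lay higher in either comparison, beside 26.7% and 20.3% of all genes. The calls at 12 months needed all 3 libraries of group B, since none of the members passed when its replicate 1, 2 or 3 was left out, and BCL2A1 had an adjusted p of 0.0510, 0.0528 and 0.0533. In those fits 0%, 0.445% and 0.730% of all genes were called, by the same test. At 24 months, BCL2A1 and PMAIP1 passed without 24-month-old replicate 1, and none passed without replicate 2 or 3, where BCL2A1 had an adjusted p of 0.0579 and 0.0541 and 3.63% and 2.06% of all genes were called. The log2 fold change of BCL2A1 over these fits was between -4.63 and -3.53.

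Markers of several cell types differed with age in the same comparisons, where 11.7% and 10.4% of all genes were lower. All 12 thymocyte markers and all 6 cell cycle markers were lower in both older groups, as were 5 of 6 macrophage markers at 12 months and 4 of 6 at 24 months and 3 of 6 B cell markers in each. Of 4 neutrophil markers, 1 was lower at 12 months and 3 at 24 months. Salivary markers went the other way, with 2 of 8 higher at 12 months and 3 of 8 at 24 months. Among all genes 6.52% and 7.1% were higher. The marker counts come from fits that hold 1-month-old replicate 2, and counts without that library are not given. None of the 5 plasma cell markers passed the test in either direction. Their sum was nevertheless lower in every library of group A, at 662, 111 and 1198 CPM, than in the older groups, at 1900 to 3853 CPM. The lowest of these sums was that of 1-month-old replicate 2. The cell cycle sum was 2555 CPM in 1-month-old replicate 2, 1013 and 857 CPM in replicates 1 and 3 and 11.5 to 38.6 CPM in the older groups. The macrophage sum was 473, 547 and 1704 CPM in group A and 164 to 294 CPM in the older groups, and the sum of 4 neutrophil markers was 7.40, 28.9 and 350 CPM against 1.35 to 4.26 CPM. Within group A, BCL2A1, PMAIP1 and MCL1 were highest in replicate 3, as were the macrophage, neutrophil, plasma cell, myeloid precursor and adipocyte sums. BCL2, BCL2L1, BCL2L11, BAX, BAK1 and BID were highest in replicate 2, as were the thymocyte, thymic epithelium, cell cycle, B cell and immediate early gene sums. The part of these cells in the members' levels was not tested, and in whole glands fewer cells of a type and less RNA per cell cannot be told apart.

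Between the older groups no member changed in edgeR's quasi-likelihood test with all 6 libraries, nor in DESeq2, edgeR's exact test or limma-voom. Of all 14077 genes 0% passed, and 1555 had an unadjusted p under 0.05, whereas DESeq2 and edgeR's exact test called 21 genes each and limma-voom 0. Among the members BID alone had an unadjusted p under 0.05 (0.0159 in edgeR's quasi-likelihood test), with 12.9 to 15.6 CPM at 12 months and 19.0 to 23.7 CPM at 24 months and a log2 difference of 0.70 ± 0.24 (adjusted p = 0.426). The groups did not overlap for BID and BCL2L11, which lay higher at 24 months, or for BCL2, which lay lower, beside 7.92% and 7.49% of all genes in those directions. BCL2A1 and PMAIP1 overlapped, at log2 differences of 0.08 ± 0.68 and -0.31 ± 0.64.

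One library weighed on that comparison. In BAK1, BCL2L1 and BID, 24-month-old replicate 1 was the lowest library of its group, and replicates 2 and 3 lay above it and closer to each other. Across all genes replicates 2 and 3 also correlated more closely with each other (r = 0.971) than either did with replicate 1 (r = 0.949 and 0.928). Replicate 1 was as close to the 12-month-old libraries (r = 0.974, 0.979 and 0.977) as those were to each other (r = 0.974 to 0.979), whereas replicates 2 and 3 were at r = 0.927 to 0.957 with them. Without replicate 1, 4 of 9 members were higher at 24 months than at 12 months, where 17.9% of 14351 genes were higher. These were BAK1 (log2 fold change 0.78 ± 0.18, adjusted p = 0.0168), BCL2L1 (0.70 ± 0.16, adjusted p = 0.0161), BID (0.80 ± 0.19, adjusted p = 0.0191) and BCL2L11 (0.67 ± 0.22, adjusted p = 0.0477). With any other library left out, no member passed. Replicate 1 was singled out from these same data, and 32.4% of all genes were called in either direction without it. The adjusted p values of that fit are therefore not an independent test of a change with age.

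The members' counts come from 25 transcripts, of which 18 averaged at least 1 CPM and 18 were tested in each comparison. BCL2A1 (XM_005695059.3), MCL1 (XM_018046042.1), PMAIP1 (XM_018039800.1) and BAK1 (XM_018039207.1) each had a single transcript. Tested one by one, the BCL2A1 transcript was the only member transcript to change at 12 months (log2 fold change -4.04 ± 0.54, adjusted p = 0.0349), beside 2.98% of 30272 transcripts, and 6 of the 18 had an unadjusted p under 0.05. At 24 months none changed, beside 1.5% of 30205 transcripts, and 4 had an unadjusted p under 0.05. The adjusted p of BCL2A1 was 0.0639 and that of PMAIP1 0.0855 there, and DESeq2 and edgeR's exact test each called 3 member transcripts and limma-voom 0, beside 15.8%, 11.6% and 1.68% of all transcripts. When 1-month-old replicate 2 was left out, 3 of 20 member transcripts were lower at 12 months, those of BCL2A1 and PMAIP1 and XM_018054807.1 of BCL2L11, beside 9.94% of all transcripts called in either direction. At 24 months none of 19 changed without it, beside 0.601%, and 4 had an unadjusted p under 0.05. Between the older groups none changed in any of the 4 tools, and 1 had an unadjusted p under 0.05.

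**Figure D4:**
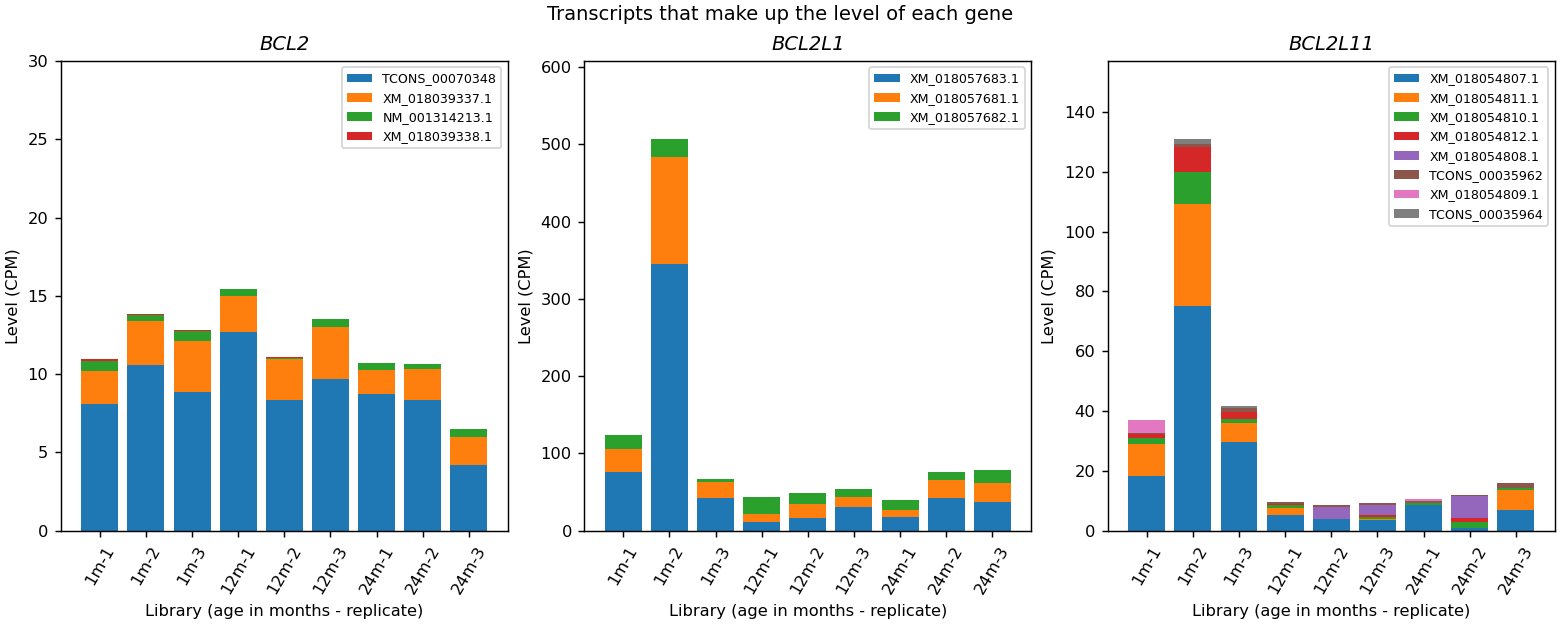
CPM of each transcript of BCL2, BCL2L1 and BCL2L11, stacked to the level of the gene, in each library (age in months and replicate). XM_018057683.1 and XM_018057681.1 make up most of BCL2L1 in group A, and XM_018057682.1 has a similar height in the 3 groups.

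The counts of BCL2L1 were spread over 3 transcripts. XM_018057683.1 was at 76.4, 345 and 42.5 CPM at 1 month and at 10.5, 16.7 and 30.7 CPM at 12 months, and its share of the gene's counts was 66.7% at 1 month, 39.7% at 12 months and 49.8% at 24 months. XM_018057682.1 was at 18.2, 23.3 and 4.53 CPM at 1 month and at 22.2, 14.4 and 10.5 CPM at 12 months, with a share of 14.7%, 4.60% and 6.73% in the libraries of group A. That share was 50.5%, 29.8% and 19.4% at 12 months and 33.6%, 13.8% and 20.5% at 24 months, so libraries of one age differed widely. The counts of group A came mostly from replicate 2, and the share over the summed counts of group A was 6.34% with that library and 11.9% without it for XM_018057682.1, and 66.7% and 62.0% for XM_018057683.1. XM_018057683.1 had a log2 difference of -2.97 ± 0.91 at 12 months (adjusted p = 0.127), and -1.64 ± 0.52 without 1-month-old replicate 2 (adjusted p = 0.117). XM_018057682.1 was at 0.07 ± 0.65 (adjusted p = 0.962), and at 0.45 ± 0.68 without that library (adjusted p = 0.755). The difference between these transcripts was not tested.

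BCL2L11 had 8 transcripts, of which XM_018054807.1 had the highest mean CPM, with shares of the gene's counts of 49.1%, 57.3% and 71.4% in the libraries of group A, 55.3%, 46.2% and 36.7% at 12 months and 81.4%, 7.76% and 42.3% at 24 months. Its share of the summed counts at 24 months was 41.0%, and 27.0% without 24-month-old replicate 1. It was at 18.1, 75.0 and 29.6 CPM at 1 month and at 5.26, 3.90 and 3.36 CPM at 12 months, with a log2 difference of -3.25 ± 0.62 that missed the threshold (adjusted p = 0.0514). It passed without 1-month-old replicate 2, at -2.53 ± 0.36 (adjusted p = 0.0248). XM_018054808.1 was at 3.97, 3.29 and 7.16 CPM in 12-month-old replicates 2 and 3 and 24-month-old replicate 2 and at 0.11 CPM or less in the other 6 libraries. It was thus present in some libraries of an age and near 0 in others, while the gene's total lay between 8.45 and 16.0 CPM in all older libraries. RSEM divides reads among transcripts that share exons, so such shares are less certain than the sum. For BCL2, 75.4% of the counts over all libraries came from TCONS_00070348, a transcript that the authors assembled, and its share was 73.4%, 76.4% and 76.6% at the 3 ages.

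The other genes of the family were examined as a list of 12, of which 11 were found and 9 tested. BCL2L12 was the one that changed at 12 months, from 4.66, 17.5 and 6.82 CPM to 2.73, 1.19 and 1.71 CPM (log2 fold change -2.33 ± 0.65, adjusted p = 0.0493). Among all genes 11.7% were lower and 6.52% higher in that test. DESeq2 called 3 of the 9 lower and 1 higher, edgeR's exact test 2 lower and 1 higher, and limma-voom called none, beside 31.8%, 28.2% and 18.8% of all genes. At 24 months none of the 9 changed, beside 10.4% of all genes lower and 7.1% higher, and 3 had an unadjusted p under 0.05. DESeq2, edgeR's exact test and limma-voom called 2, 1 and 0, beside 27.2%, 25.7% and 18.2% of all genes. BMF, a BH3-only gene with the highest CPM of the list in group A (not corrected for length), was at 201 ± 174 CPM (SD, n = 3) at 1 month and 62.7 ± 17.3 CPM at 12 months, with 66.3% of the group A sum in replicate 2 (log2 difference -1.66 ± 0.66, adjusted p = 0.116, and -0.69 ± 0.30 without that library, adjusted p = 0.105). BCL2L14 differed in the other direction, at 3.42 ± 2.11 CPM, 9.12 ± 3.01 CPM and 8.59 ± 0.960 CPM at the 3 ages (log2 difference 1.49 ± 0.51 at 12 months, adjusted p = 0.0817, and 1.15 ± 0.47 without 1-month-old replicate 2, adjusted p = 0.0953). The median of the list was -0.68 at 12 months and -0.13 at 24 months. Without 1-month-old replicate 2, BCL2L12 (-1.60, adjusted p = 0.0313) and BCL2L15 (-3.24, adjusted p = 0.0300) were lower at 12 months and BCL2L15 at 24 months (-2.89, adjusted p = 0.0264), and the medians were -0.69 and 0.02. All genes called lower in those fits came to 22.2% and 14.2%.

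Downstream of the family, 17 genes of the mitochondrial death pathway were tested, a list that does not hold every gene of the pathway. At 12 months 2 were lower and 1 higher, with a list median of -0.16, beside 11.7% lower and 6.52% higher among all genes. BIRC5 (survivin), an inhibitor of apoptosis that dividing cells express, was at 19.2, 42.5 and 15.2 CPM at 1 month and 0.852, 1.19 and 0.676 CPM at 12 months (log2 fold change -4.78 ± 0.57, adjusted p = 0.0073, and -4.24 without replicate 2). APAF1, the scaffold of the apoptosome, was lower by a smaller amount (-0.95 ± 0.25, adjusted p = 0.0409). VDAC3, a channel of the outer membrane, was higher (0.89 ± 0.23, adjusted p = 0.0418). At 24 months 2 of the 17, BIRC5 and the DNase DFFB, were lower and none higher, beside 10.4% and 7.1% of all genes. The median was -0.0072. Without 1-month-old replicate 2, 4 of 17 were lower and 5 higher at 12 months, beside 22.2% lower and 21.5% higher among all genes, and 4 lower and 1 higher at 24 months, beside 14.2% and 14.1%. The shares at 12 months are near those of all genes. BIRC5, APAF1 and VDAC3 were among those that passed at 12 months, and the medians were -0.10 and -0.06.

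In the death receptor pathway 2 of 11 genes were lower at 12 months and 2 of 11 at 24 months, TNF and CASP8 in both. Among all genes tested 11.7% and 10.4% were lower. TNF was at 3.94, 18.8 and 6.19 CPM at 1 month and at 0.681, 0.397 and 0.361 CPM at 12 months (log2 fold change -4.26 ± 0.77, adjusted p = 0.0155, and -3.36 without replicate 2). CASP8, the initiator caspase that cleaves BID, had a log2 fold change of -1.17 ± 0.31 (adjusted p = 0.0451) at 12 months. FASLG was the third by p, at 0.880, 1.34 and 1.15 CPM at 1 month and 0.213, 0 and 0 CPM at 12 months (-3.75 ± 1.10, adjusted p = 0.0569). The medians were -0.71 and -0.52, and without 1-month-old replicate 2 they were -0.65 and -0.59. In those fits 5 of 11 were lower and 1 higher at 12 months, FASLG now among the lower (adjusted p = 0.0490), and 3 lower at 24 months, beside 43.7% and 28.3% of all genes called in either direction.

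Of 13 regulators of the family, 1 was lower at 12 months and 1 at 24 months, beside 11.7% and 10.4% of all genes. The medians were -0.33 and -0.28. MYB, a transcription factor of immature blood cells that activates BCL2, was at 225, 362 and 113 CPM at 1 month and at 1.87, 0.908 and 0.901 CPM at 12 months (log2 fold change -7.53 ± 0.69, adjusted p = 0.0059, and -7.10 without replicate 2). STAT5B, an activator of BCL2L1 downstream of cytokine receptors, did not pass (-1.61 ± 0.45, adjusted p = 0.0514), nor did TP73 (-1.49 ± 0.59, adjusted p = 0.117). Without replicate 2, MYB and STAT5B (-1.04, adjusted p = 0.0019) were lower at 12 months and MYB at 24 months, beside 22.2% and 14.2% of all genes. The medians were then -0.40 and -0.39. Between the older groups none of the tested genes of these 4 lists changed in edgeR's quasi-likelihood test, DESeq2, edgeR's exact test or limma-voom, and in the first of these 3 other family genes, 1 gene of the mitochondrial pathway, 0 of the death receptor pathway and 1 regulator had an unadjusted p under 0.05. Without 24-month-old replicate 1 there were calls in each list, 3 higher among 9 other family genes, 4 lower and 1 higher among 17 of the mitochondrial pathway, 2 lower and 3 higher among 10 of the death receptor pathway and 1 lower and 1 higher among 13 regulators, beside 14.5% lower and 17.9% higher among all genes.

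**Figure D5:**
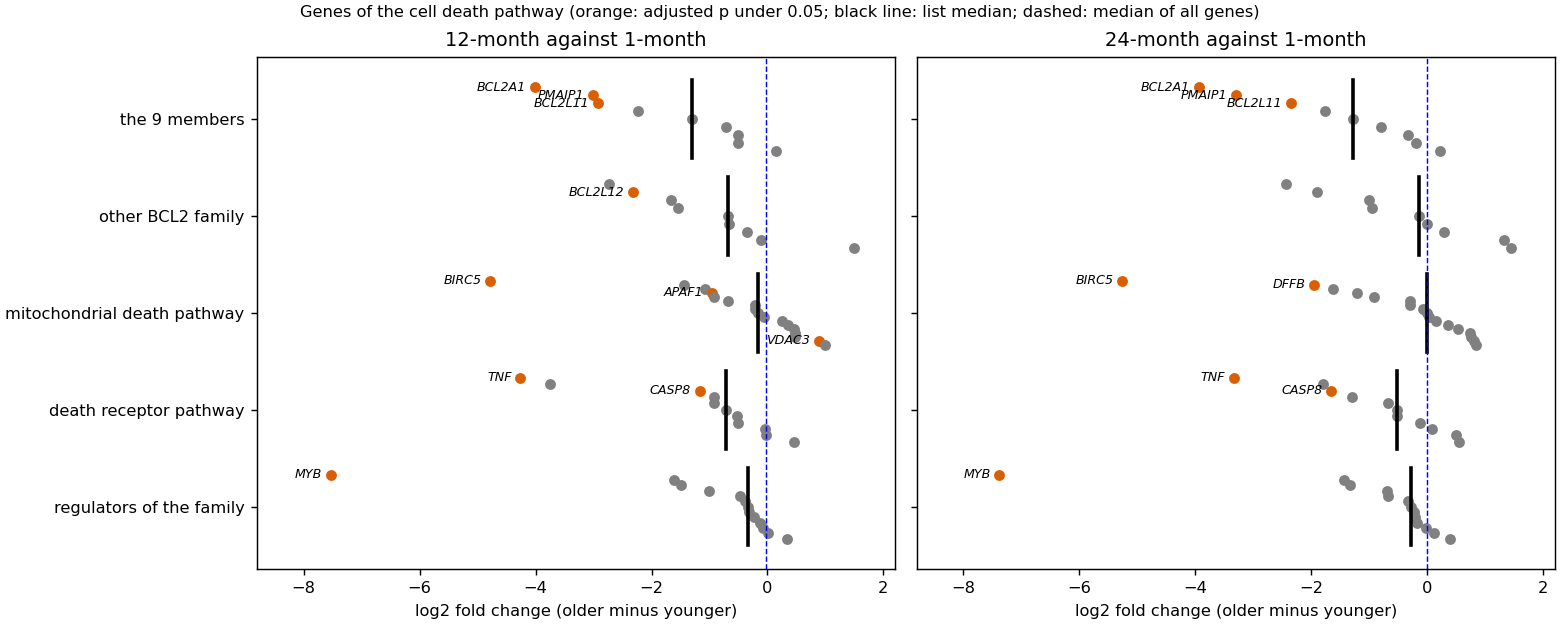
Log2 fold change (older minus younger) of each tested gene of the 5 lists in the 2 comparisons with group A, with genes at an adjusted p under 0.05 in orange, a black line at each list's median and a dashed line at the median of all genes. The median of the 9 members is -1.30 and -1.28 with all libraries, but -0.63 and -0.54 without 1-month-old replicate 2, where the 12-month medians of the other family genes and the death receptor genes are -0.69 and -0.65.

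The genes most like each member across the 9 libraries were found by Pearson's r of log2(CPM + 1) among 12904 genes with a symbol and a mean of at least 1 CPM. The 9 points share age groups and the library labelled 1-month-old replicate 2, so the values only describe likeness. BCL2A1 was most like CYTIP (r = 0.997) and the leukocyte receptor CD84 (r = 0.994), and PMAIP1 like NUP210L (r = 0.987) and GEN1 (r = 0.984). BCL2L11 was most like PPP1R18 and PDLIM2 (r = 0.997 for both), BCL2L1 like ZBED1 (r = 0.991) and DUSP18 (r = 0.989), and BAK1 like PQBP1 (r = 0.995) and TTLL12 (r = 0.993). The values were lower for BAX with MBD3 (r = 0.978) and CCT5 (r = 0.974), BID with USP4 (r = 0.975) and PELI3 (r = 0.975), BCL2 with YBX1 (r = 0.968) and ANKRD40 (r = 0.928) and MCL1 with ROBO2 (r = 0.963) and CDKN2AIP (r = 0.960).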

How the data were processed

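RNA from 9 submandibular glands was sequenced by the authors on an Illumina HiSeq instrument with a strand-marking dUTP protocol. Per the methods and the submitters' processing notes, ribosomal reads were removed with Bowtie2 2.2.8, the rest aligned to the goat genome with TopHat2 2.1.1 and transcripts assembled with Cufflinks. The build was not given in the sources used here, so no coordinates are reported. The values deposited by the authors are RSEM expected counts per transcript, not normalized, for 42686 RefSeq and 10053 assembled transcripts. They hold neither FPKM nor lengths, so the study's FPKM threshold was not applied. Of the RefSeq identifiers 42652 matched the RefSeq annotation, which served for names only.

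Transcripts were summed by gene symbol, with the symbols of assembled transcripts set to upper case (1289 changed). The 436 assembled transcripts without a usable symbol, from 0.251% to 6.01% of a library, were left out of gene sums and of the library sizes and tests of genes. They were kept in the transcript tests. Sums were rounded and each pair of ages was compared with its 6 libraries in edgeR 4.0.16 under R 4.3.3 (filterByExpr, TMM, glmQLFit, glmQLFTest), without pairing, with Benjamini-Hochberg adjustment over all genes tested. The SE is the absolute log2 fold change divided by the square root of F. CPM used TMM factors over the 9 libraries. The replicates are separate goats. Alternatives were DESeq2 1.42.0 (its size factors and its Wald test), upper-quartile scaling, library totals, edgeR's exact test, limma-voom (limma 3.58.1), no filter, all 9 libraries, RefSeq transcripts only, a block for the replicate number, and each library left out in turn. The fits without a library were also run for transcripts. Keeping the letter case of symbols was added after seeing the data.

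The members and the gene lists were chosen with earlier results of these data known. All members were named, and other family genes that changed or were most abundant. So were the 3 genes with the smallest p of each other list at 12 months against 1 month. The 2 genes most like each member were named as well. Of the member transcripts with a mean of at least 1 CPM only some were named, and none of BAX or BID. BCL2L14, BCL2L15 and DFFB, and the genes lost or gained without a library, were named after their values were seen. BCL2L2, CYCS, CASP10 and STAT5A were not found under those symbols, and BCL2L10 and HRK did not pass the filter. Some genes of the mitochondrial pathway and regulator lists are not reported here. They were left out for a reason other than their values, and the counts and medians of those lists cover the remaining genes only.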

Additional observations from a re-analysis of the deposited data

How the results depend on the processing

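Across the alternatives, BCL2A1 and PMAIP1 kept a lower level than in 1-month-old goats, with log2 fold changes from -4.66 to -3.53 and from -4.03 to -2.79, and BCL2L11 from -3.25 to -1.50. The count of members changed at 12 months was 3 or 4 except with the replicate block (1, BCL2A1; adjusted p = 0.0533 for BCL2L11 and 0.0639 for PMAIP1) and over the fits that leave out a library (0 to 4, the lowest without any 12-month-old library), and the count past the study's fold threshold was also 1 with the block and 0 to 4. At 24 months against 1 month both counts ranged from 0 to 3 over the left-out libraries, and at 24 against 12 months the count changed from 0 to 4. The replicate numbers did not pair the goats (correlations of same-numbered deviations were -0.13, -0.13 and -0.11 at 12 months, 0.43, 0.21 and -0.24 at 24 months, and -0.08, -0.13 and -0.01 between the older groups), and the block left 3 members changed at 24 months. BCL2L1 passed at 12 months with library totals (adjusted p = 0.0351), DESeq2 (0.0088), the exact test (0.0221), all 9 libraries (0.0355) and without 1-month-old replicate 2 (0.0273) or 3 (0.0434), and at 24 months with DESeq2 (0.0469). MCL1 passed at 24 months with library totals alone (-1.48, adjusted p = 0.0340), which moved the median of all genes to -0.48, -0.68 and -0.17 in the 3 comparisons. Member transcripts changed at 12 months numbered 3 with library totals (6.27% of all transcripts called), 6 with DESeq2 (17.9%), 4 with the exact test (11.9%), 0 with limma-voom (0%), 0 with the replicate block (0%) and 0 to 3 over the left-out libraries (3 without 1-month-old replicate 2, with 9.94%, and otherwise 0, with 0%). At 24 months against 1 month they numbered 1 with library totals (5.39%), 3 with DESeq2 (15.8%), 3 with the exact test (11.6%) and 2 with all 9 libraries (6.66%). Reversed signs, none past the threshold, were BCL2 at 12 months with library totals (-0.29), RefSeq transcripts only (-0.10) and letter case kept (-0.039), BID at 12 months over left-out libraries (-0.80 to 0.059, the latter without 1-month-old replicate 2), BID at 24 months with library totals (-0.37) and over left-out libraries (-0.052 without 1-month-old replicate 1 to 0.83), BAK1 at 24 months over left-out libraries (-0.47 to 0.42, with 0.11 without 24-month-old replicate 1), and, between the older groups, BCL2A1 with library totals (-0.14), limma-voom (-0.20), the block (-0.14) and left-out libraries (-0.66 to 0.44) and BAX over left-out libraries (-0.37 to 0.27). For these the cause was not tested. Low counts limited BCL2A1 and PMAIP1 in the older groups, at 5 to 23.6 expected counts, although the libraries of these groups had the larger count sums.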
